A study of Mus musculus with 12 samples.

Results

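Fgl2, Tmem88b, Stk38l and Epb41l4a were 4 genes whose RNA was higher in cardiomyocytes after mLIF and after mOSM, but in which hlOSM, a ligand that engages the receptors of both, gave a level far below what the sum of the separate log2 changes would give. They were 4 of the 22915 genes in the deposited table and 4 of the 13184 genes with enough signal to be tested, and they were chosen by these same values. Tmem88b passed the filter on low values through its cytokine libraries, the other 3 genes in every condition. Their rises with each cytokine and their distance from the sum are therefore descriptions, given without a test. The study asked which transcripts respond when LIFR, OSMR or both receptors are stimulated in heart muscle cells. RNA of primary cardiomyocytes was sequenced in 12 libraries, from adult male C57/Bl6 mice aged 12 weeks, with 3 libraries for each of 4 conditions. Cells were kept at normal oxygen for 24 h with the solvent PBS or with a recombinant cytokine: the mouse form of leukemia inhibitory factor (mLIF), that of oncostatin M (mOSM), or human-like OSM (hlOSM). The labels give 25 ng/ml for each cytokine, and the methods of the study state a slightly lower concentration. The labels name no altered allele in any group. hlOSM is murine OSM with the AB loop of the human protein. It is 1 protein given at 1 dose and not a mixture of mLIF and mOSM, so that the sums below were not measured in any culture. The sources used here do not say whether the libraries of a condition came from separate animals, and p-values measure only the spread between these libraries, which may be technical.

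LIF and OSM belong to the gp130 family of cytokines, and their receptors each pair with the shared chain gp130 (Il6st). In mouse cells LIF uses LIFR and OSM uses OSMR, whereas human OSM can use either. Both receptor pairs activate Janus kinases, STAT3 and the ERK pathway, and Socs3 is a feedback inhibitor induced by that signal. The 4 genes belong to different families. Fgl2 encodes fibrinogen-like protein 2, a fibrinogen-domain protein that can cleave prothrombin at the cell surface and is also secreted by immune cells. Tmem88b encodes a membrane protein named after TMEM88, an inhibitor of WNT signaling that binds Dishevelled. Stk38l encodes NDR2, a serine/threonine kinase of the NDR family, which is related to the LATS kinases of the Hippo pathway. Epb41l4a encodes a FERM-domain protein of the band 4.1 family, whose best-known members link membrane proteins to the actin cytoskeleton.

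In the table, which uses mm10, Fgl2 (ENSMUSG00000039899) lay at chr5:21372642-21378374 on the plus strand with 3788 exonic bases in 2 exon blocks. The whole of Fgl2 lay inside Ccdc146, a gene of the opposite strand, with 0 shared exonic bases. Tmem88b (ENSMUSG00000073680) lay at chr4:155781591-155785874 on the minus strand with 3471 exonic bases in 2 blocks. Stk38l (ENSMUSG00000001630) lay at chr6:146724995-146778812 on the plus strand with 4880 exonic bases in 15 blocks. All 4 genes are protein-coding, and none shared an exonic base with another annotated gene.

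The start regions of 3 of these genes are printed because the genes were raised by both ligands and STAT3 and AP-1 factors act at promoters downstream of gp130. They are the RefSeq sequences of GRCm38.p6 from 250 bases before to 50 bases after the transcript start, read 5′ to 3′ on the strand of the gene, for Fgl2 at chr5:21372423-21372722 (plus), for Tmem88b at chr4:155785825-155786124 (minus) and for Stk38l at chr6:146724680-146724979 (plus). Capitals mark matches to 5 short motifs, which were searched on both strands and were chosen with these promoters in view.
Fgl2: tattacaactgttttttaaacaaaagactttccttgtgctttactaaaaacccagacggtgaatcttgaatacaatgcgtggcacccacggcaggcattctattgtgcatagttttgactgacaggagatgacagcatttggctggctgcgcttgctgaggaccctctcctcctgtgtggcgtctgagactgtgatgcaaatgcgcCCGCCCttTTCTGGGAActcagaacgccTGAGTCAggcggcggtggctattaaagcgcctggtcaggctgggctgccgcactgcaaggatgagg
Tmem88b: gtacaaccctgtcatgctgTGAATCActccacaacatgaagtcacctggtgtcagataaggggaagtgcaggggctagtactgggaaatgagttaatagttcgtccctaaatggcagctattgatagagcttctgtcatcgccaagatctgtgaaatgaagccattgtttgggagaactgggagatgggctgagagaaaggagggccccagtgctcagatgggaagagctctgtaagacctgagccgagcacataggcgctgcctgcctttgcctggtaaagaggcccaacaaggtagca
Stk38l: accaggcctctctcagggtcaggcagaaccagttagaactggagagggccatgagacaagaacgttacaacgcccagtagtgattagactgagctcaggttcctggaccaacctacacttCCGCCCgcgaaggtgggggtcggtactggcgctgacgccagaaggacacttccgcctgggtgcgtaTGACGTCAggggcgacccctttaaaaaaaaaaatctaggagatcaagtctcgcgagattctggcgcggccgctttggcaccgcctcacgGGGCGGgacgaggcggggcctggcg
Positions are counted from 0 at the RefSeq start, with negative numbers before it. The RefSeq start was the start in the table for Tmem88b, 31 bases further into the gene for Fgl2, and 65 bases before the table's start for Stk38l. The Fgl2 sequence held the STAT motif (TTCNNNGAA) from -36 to -28 and the AP-1 motif (TGANTCA) from -16 to -10, close to the start, and a GC box (GGGCGG or its reverse) from -44 to -39. Of 32851 RefSeq windows of this length, 8.30% held the STAT motif, 7.81% the AP-1 motif and 35.7% a GC box. Tmem88b held an AP-1 match from -231 to -225 and no other of the 5. Stk38l held the CRE motif (TGACGTCA, in 1.79% of windows) from -64 to -57 and GC boxes from -130 to -125 and from 25 to 30. The TATA letters (TATAAA, in 13.6% of windows) were in none of the 3, and no marked match overlapped another. GC content was 51.7% for Fgl2, 51.0% for Tmem88b and 60.0% for Stk38l. A match is a run of letters and was not tested as a binding site.

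Library totals lay between 2745748 and 2911891 on the authors' normalized scale, with overlapping ranges in the 4 conditions. Values below are normalized counts, rounded to whole numbers by the authors, and the table does not give the number of reads behind each library, for which the methods of the study state only an average. Log2 changes are limma estimates on log2(normalized count + 1) with their standard error (SE). Averaged over the conditions, replicate 3 lay 0.04 above replicate 1 on the log2 scale and did so by almost the same amount over the 6626 more abundant genes (SD 0.0019), whereas this difference had an SD of 0.13 to 0.17 within single conditions. The deposited values thus held next to no difference between replicate numbers that varied from gene to gene, and the fit without a term for the number counts more residual degrees of freedom than such values have. A fit with the number as a replicate block is therefore given beside each named call that it ended. Of all tested genes, 5.47% were higher and 4.44% lower with mLIF than with PBS at an adjusted p under 0.05. The shares were 15.4% higher and 15.8% lower with mOSM, and 18.2% higher and 19.8% lower with hlOSM. A rise with mLIF and with mOSM was required by the choice of the 4 genes, whereas a rise with hlOSM was not. In none of the 4 did a cytokine library overlap a PBS library, which held for 8.90% of tested genes.

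Fgl2 was the most abundant of the 4. Its normalized counts in replicates 1, 2 and 3 were 377, 341 and 304 with PBS, and 617, 658 and 735 with mLIF. In mOSM-treated cells they were 782, 819 and 789, and in hlOSM-treated cells 817, 799 and 948. The mLIF libraries thus lay between the PBS libraries and all the others, and mOSM and hlOSM libraries overlapped. All hlOSM libraries lay above all mLIF libraries, as in 14.6% of tested genes. Group means were 341 ± 36.5, 670.0 ± 59.9, 797 ± 19.7 and 855 ± 81.3 in the order PBS, mLIF, mOSM, hlOSM (SD, n = 3), or 1.97, 2.34 and 2.51 times PBS. On the log2 scale mLIF changed it by 0.98, mOSM by 1.23 and hlOSM by 1.33 (SE 0.08 each). The sum of the first pair was 2.20, of which hlOSM reached 60.2%. The level with hlOSM lay 0.10 above mOSM (SE 0.08) and 0.35 above mLIF (SE 0.08).

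Tmem88b had the largest relative change and the lowest counts. PBS libraries held 13, 12 and 8 normalized counts and mLIF libraries 47, 37 and 49. The mOSM libraries held 55, 61 and 52, and the hlOSM libraries 48, 63 and 90. The hlOSM libraries spread over the ranges of both other cytokines, and replicate 3 with hlOSM was the highest library of all. Means in the same order were 11.0 ± 2.65, 44.3 ± 6.43, 56.0 ± 4.58 and 67.0 ± 21.3 (SD, n = 3), that is 4.03, 5.09 and 6.09 times PBS. The log2 changes were 1.93, 2.27 and 2.48 (SE 0.20 each), so that hlOSM reached 59.0% of a sum of 4.20. With so few counts in PBS the size depended on the constant added before the logarithm, and with 5 in place of 1 the mOSM and hlOSM changes of Tmem88b were 1.94 and 2.14.

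Stk38l had the smallest changes, and hlOSM gave the lowest level of the 3 cytokines. Its normalized counts were 148, 130 and 131 with PBS, and 213, 204 and 203 with mLIF. In mOSM-treated cells they were 189, 201 and 199, and in hlOSM-treated cells 161, 177 and 202. Every mLIF library lay above every hlOSM library, as in 17.1% of tested genes, while mOSM and hlOSM overlapped. The difference of mOSM from mLIF did not pass the test (-0.07, limma adjusted p = 0.652). Means were 136 ± 10.1, 207 ± 5.51, 196 ± 6.43 and 180.0 ± 20.7 for PBS, mLIF, mOSM and hlOSM (SD, n = 3), and the cytokine means were 1.52, 1.44 and 1.32 times PBS. The log2 changes were 0.60, 0.52 and 0.39 (SE 0.08 each), and hlOSM reached 35.1% of the sum of 1.12. The mean hlOSM level of this kinase was lower than both single-receptor means, at -0.13 relative to mOSM and -0.20 relative to mLIF on the log2 scale (SE 0.08 each). Both differences are given without a test.

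Epb41l4a (ENSMUSG00000024376; chr18:33796327-34006966, minus strand, 9071 exonic bases in 24 blocks) was highest with mOSM. Its normalized counts were 44, 47 and 37 with PBS and 62, 75 and 81 with mLIF. With mOSM they were 100, 93 and 103, and with hlOSM 89, 74 and 88. All mOSM libraries lay above all hlOSM libraries, which held for 5.62% of tested genes, and hlOSM overlapped mLIF. Means were 42.7 ± 5.13, 72.7 ± 9.71, 98.7 ± 5.13 and 83.7 ± 8.39 for PBS, mLIF, mOSM and hlOSM (SD, n = 3), with ratios to PBS of 1.70, 2.31 and 1.96. The log2 changes were 0.75, 1.20 and 0.96 (SE 0.12 each), and hlOSM reached 49.1% of the sum of 1.95. For this FERM protein gene hlOSM was at -0.24 relative to mOSM and 0.20 relative to mLIF on the log2 scale (SE 0.12 each), both given without a test.

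**Figure D1:**
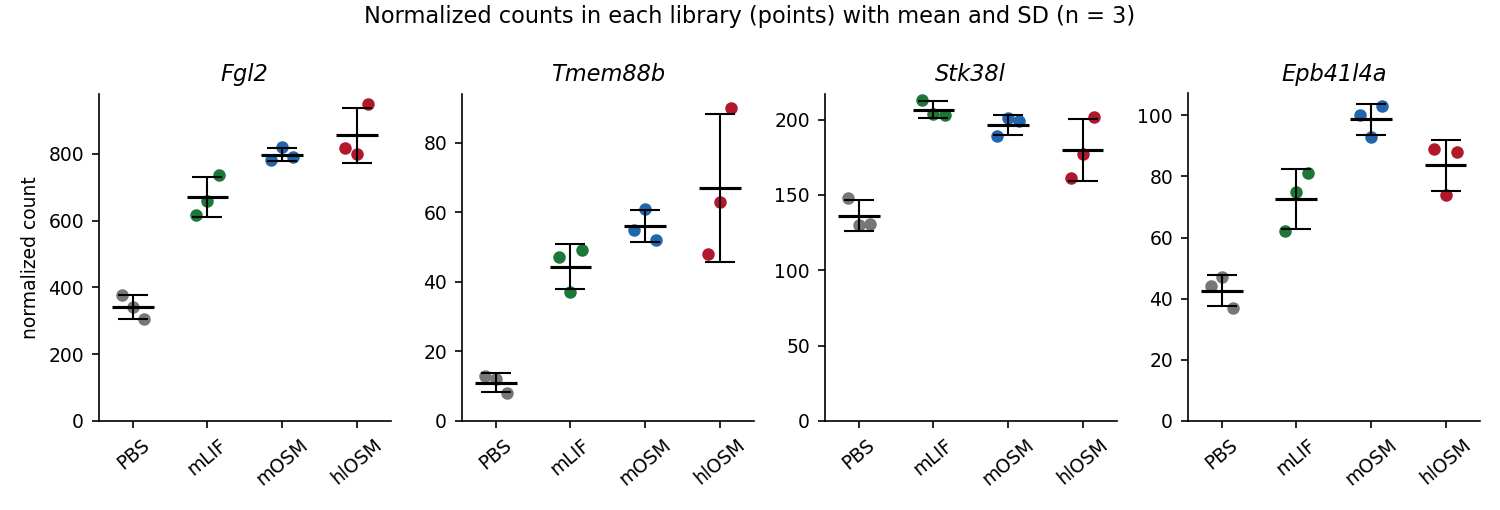
Normalized counts (vertical axes, from 0) of Fgl2, Tmem88b, Stk38l and Epb41l4a in the 3 libraries of PBS-, mLIF-, mOSM- and hlOSM-treated cardiomyocytes. Points are libraries, long bars the mean and short bars the SD. For every gene the PBS libraries lie below all cytokine libraries; hlOSM is the highest mean for Fgl2 (855) and Tmem88b (67.0) and the lowest cytokine mean for Stk38l (180.0).

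Normalized for exon length, the 4 genes sat at very different heights. The mean normalized count per kilobase of exon was 89.9 for Fgl2 with PBS, at percentile 88.0 of the tested genes, and 226 with hlOSM, at percentile 98.5. Stk38l went from 27.9 (percentile 55.2) with PBS to 42.3 (68.2) with mLIF and 36.9 (63.5) with hlOSM. Epb41l4a went from 4.70 (percentile 12.8) to 10.9 (28.9) with mOSM and 9.22 (25.4) with hlOSM. Tmem88b went from 3.17 (percentile 7.41) with PBS to 12.8 (32.7) with mLIF and 19.3 (43.7) with hlOSM. On this length-corrected scale the order with PBS was Fgl2, Stk38l, Epb41l4a and Tmem88b, and with hlOSM the last pair had changed places. These are bulk RNA values, in which fewer cells of a type and less RNA per cell cannot be told apart.

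The distance of hlOSM from the sum was measured as the hlOSM change minus the mLIF and mOSM changes on the log2 scale, which is the interaction term of the fit. It was -0.88 (SE 0.11) for Fgl2, -1.72 (SE 0.29) for Tmem88b, -0.73 (SE 0.12) for Stk38l and -0.99 (SE 0.18) for Epb41l4a. A negative value says that hlOSM stayed below the product of the separate fold changes, here by 1.84-fold, 3.30-fold, 1.66-fold and 1.99-fold. The 4 genes were chosen by this distance, so it is given for them without a call. Of all tested genes, 0.152% had a negative interaction with an adjusted p under 0.05. That is 20 genes, a number that ran from 5 without mLIF replicate 3 to 136 without hlOSM replicate 3 and was 13 with the replicate block. When each library was left out in turn, the interaction ran from -0.95 to -0.80 for Fgl2 and from -1.96 to -1.51 for Tmem88b. It ran from -0.81 to -0.65 for Stk38l and from -1.10 to -0.89 for Epb41l4a. These libraries also entered the choice of the 4 genes, so the ranges are descriptions.

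The level with hlOSM also lay below the level that follows from adding changes in normalized count in place of log2 changes, by a smaller ratio than below the log2 sum. As a share of the sum, what hlOSM reached was nevertheless slightly lower on the count scale for Stk38l and Epb41l4a. For Fgl2, mLIF added 329 and mOSM 456 normalized counts to the PBS mean, 785 together, whereas hlOSM added 514, or 65.4% of that sum. A level of 1126 would follow from adding the count changes and 1573 from adding the log2 changes, against 855 measured. For Tmem88b the rises were 33.3, 45.0 and 56.0, so that hlOSM reached 71.5% of the sum, with a level of 67.0 against 89.3 (counts added) or 220.1 (log2 added). The choice of scale mattered most for Tmem88b, the gene with the largest folds. For Stk38l the rises were 70.3, 60.0 and 43.7, or 33.5% of the sum, and the level was 180.0 against 267 or 298. For Epb41l4a they were 30.0, 56.0 and 41.0, or 47.7% of the sum, and the level was 83.7 against 129 or 168. In all 4 genes the mean with hlOSM was nearer to the mOSM mean than to either sum. A level below the sum of count changes was not particular to them. It was found in 601 (96.9%) of the 620 genes raised past the threshold by mLIF and by mOSM. In the median such gene hlOSM reached 69.8% of that sum. Of all tested genes, 49.1% lay below it.

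**Figure D2:**
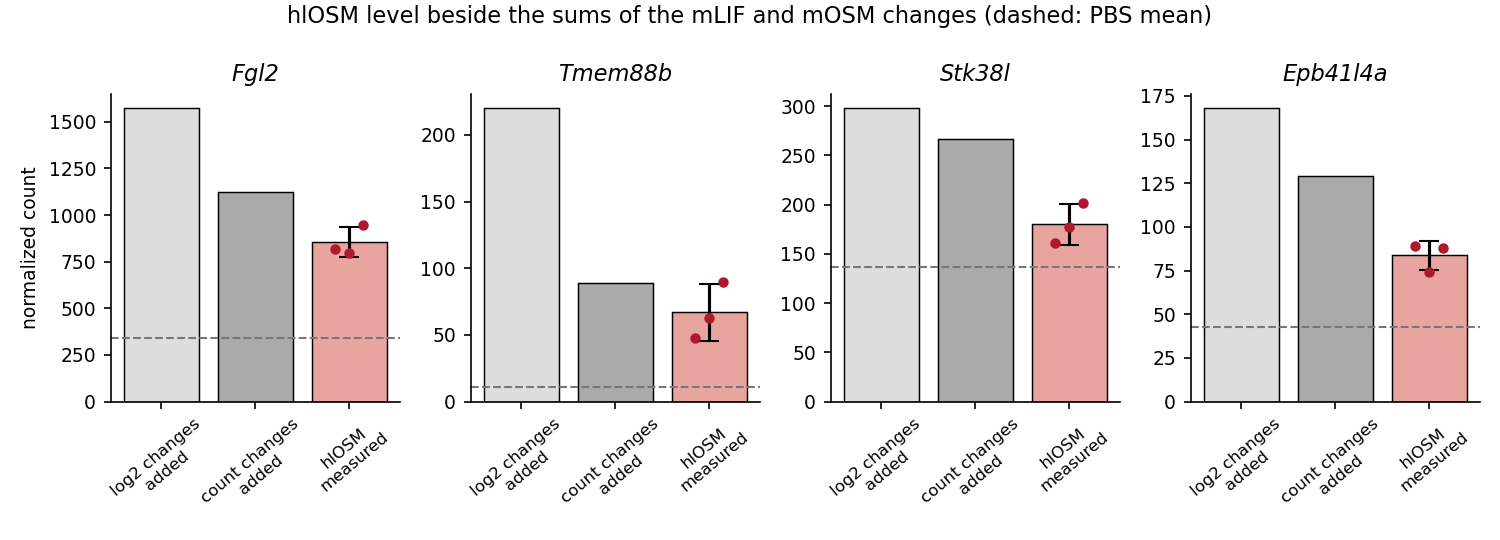
Normalized counts (vertical axes, from 0) that adding the log2 changes (light gray) or the count changes (dark gray) of mLIF and mOSM to PBS would give, beside the mean measured with hlOSM (red bar; points are the 3 libraries, the error bar is the SD). The dashed line is the PBS mean. For Fgl2 the bars stand at 1573, 1126 and 855, and in each of the 4 genes the hlOSM bar is the lowest of the 3.

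The choice of genes did not ask whether mLIF or mOSM gave the higher level, and this difference was tested. These same mLIF and mOSM libraries entered the choice, however, so the p-values and intervals below are not independent of it. Fgl2 was higher with mOSM than with mLIF by 0.25 on the log2 scale (SE 0.08, 95% confidence interval 0.09 to 0.41, limma adjusted p = 0.0333), and Epb41l4a by 0.44 (SE 0.12, interval 0.19 to 0.70, limma adjusted p = 0.0195). In these and in Tmem88b all mOSM libraries lay above all mLIF libraries, as in 12.9% of tested genes. For Stk38l the order was reversed, with mLIF libraries at 203 to 213 and mOSM libraries at 189 to 201. The share of tested genes with that order was not counted. Tmem88b was 0.34 higher (interval -0.08 to 0.76, limma adjusted p = 0.329) and Stk38l differed by -0.07 (interval -0.25 to 0.10, limma adjusted p = 0.652), neither past the threshold. Thus 2 of the 4 genes were higher with mOSM, beside 6.05% of tested genes higher and 5.76% lower. Among the 620 genes that mLIF and mOSM both raised past the threshold, 190 (30.6%) were higher with mOSM than with mLIF and 1 was lower. The interval for Stk38l covers differences of either sign, and that for Tmem88b reaches from slightly lower to clearly higher with mOSM. The Fgl2 call did not hold without mLIF replicate 1 (limma adjusted p = 0.185), mLIF replicate 2 (0.109) or mOSM replicates 1, 2 and 3 (0.0592, 0.096 and 0.0641), nor without the filter on low values (0.054), and its adjusted p ranged from 0.00682 to 0.185 over all alternatives. The Epb41l4a call did not hold with the replicate block (limma adjusted p = 0.0539), without mLIF replicate 1 (0.14) or without mOSM replicates 1 and 3 (0.0619 and 0.0718), with a range from 0.00944 to 0.14. With the replicate block the Fgl2 difference had a limma adjusted p of 0.0476. Expressed as a share, the mLIF change was 79.4% of the mOSM change for Fgl2, 85.1% for Tmem88b, 114% for Stk38l and 62.9% for Epb41l4a.

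A value of hlOSM below the log2 sum was not particular to these 4 genes. In the tested table, 620 genes (4.70%) were higher with mLIF and with mOSM at an adjusted p under 0.05, and all 620 had a negative interaction estimate, with a median of -0.38 and a range from -2.71 to -0.04. The number 620 fell to 257 without mLIF replicate 3, to 377 without PBS replicate 3 and to 404 with the replicate block. The 3 changes share the PBS libraries, and a low PBS value raises the mLIF and mOSM changes and lowers the interaction at once, so this direction is partly built into the choice of genes. Of the 620, 19 passed the threshold for the interaction and 601 did not. In the median such gene hlOSM reached 65.6% of the log2 sum (10th to 90th percentile 46.8% to 77.4%) and lay 0.05 above the larger single change (-0.10 to 0.21). Fgl2 at 60.2% and Tmem88b at 59.0% lay within that range of shares, Epb41l4a at 49.1% lay near its lower end and Stk38l at 35.1% below it. Ordered by that share from the lowest, Stk38l was at rank 14, Epb41l4a at 77, Tmem88b at 182 and Fgl2 at 202 of 620.

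Against the larger single change, hlOSM lay 0.10 higher for Fgl2, 0.21 higher for Tmem88b, -0.20 for Stk38l and -0.24 for Epb41l4a. hlOSM was below the larger single change in 189 of the 620 genes (30.5%), as in Stk38l and Epb41l4a, and below both in 59 (9.52%), as in Stk38l. An mLIF change at least as large as that of mOSM, as in Stk38l, was found in 127 (20.5%). By the interaction itself Tmem88b ranked 13, Epb41l4a 58, Fgl2 76 and Stk38l 109 from the most negative. By the ratio of the interaction to its SE they ranked 6, 8, 3 and 5 of all tested genes.

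**Figure D3:**
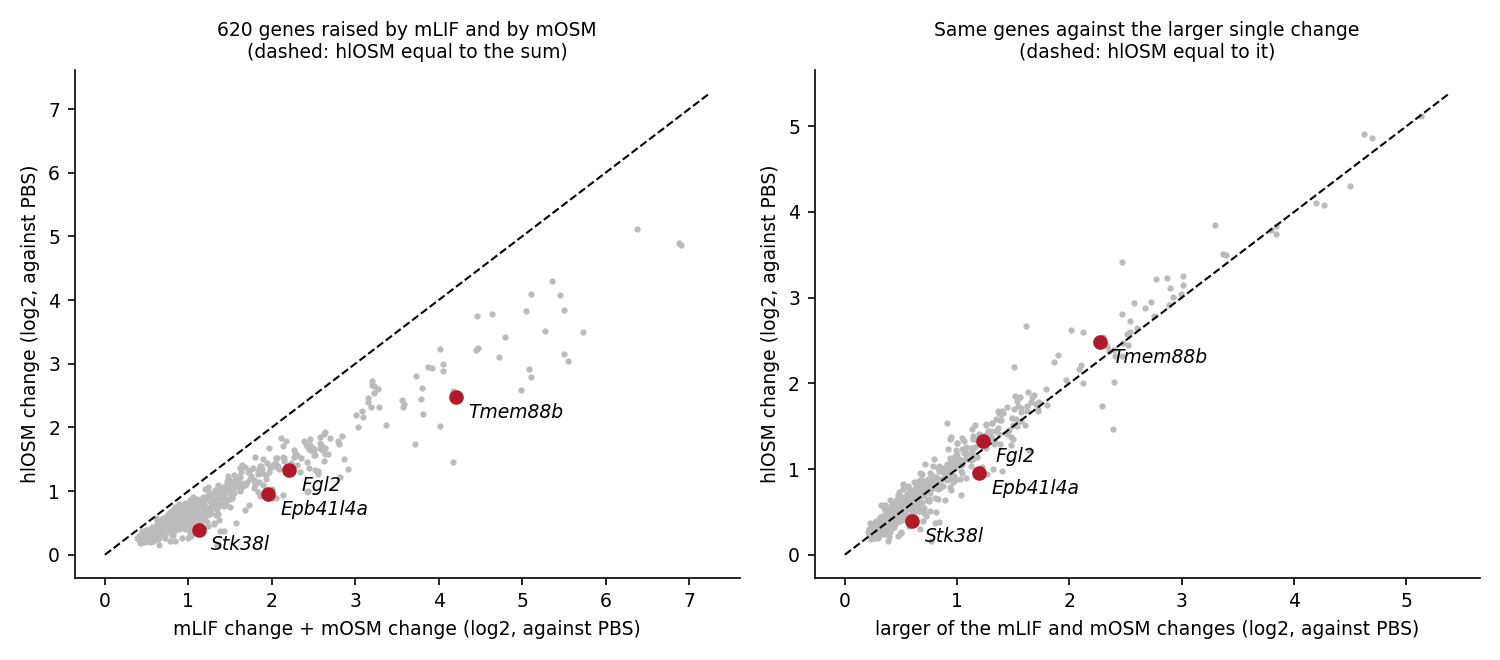
Log2 change with hlOSM (vertical axes) against the sum of the mLIF and mOSM changes (left) and against the larger of them (right) for the 620 genes raised by both, gray, with Fgl2, Tmem88b, Stk38l and Epb41l4a in red. Dashed lines mark equality: all 620 points lie below it on the left, and on the right the points lie along it, with Stk38l and Epb41l4a below it.

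Among the 514 of these genes with a mean of at least 50 normalized counts, the most negative interactions belonged to Serpina3n (-2.23), an acute-phase protease inhibitor, Kbtbd11 (-1.98), Steap4 (-1.76), a metalloreductase, Star (-1.61), the mitochondrial cholesterol carrier, and Thbs4 (-1.60), a matricellular protein. Epb41l4a ranked 16, between Mt1 (-1.01) and Cd24a (-0.97). Fgl2 ranked 22, between Cebpd (-0.89) and Ip6k3 (-0.88). Stk38l ranked 43, between Mylk2 (-0.73) and Ints5 (-0.73), genes in which hlOSM reached 28.7% and 26.8% of the log2 sum. Tmem88b, with a mean of 44.6, lay under the minimum for this order.

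Over the 12 libraries, the log2 values of Fgl2 and Tmem88b had a Pearson correlation of 0.99, those of Epb41l4a and Fgl2 of 0.95, and those of Epb41l4a and Stk38l, the least alike pair, of 0.77. These are descriptions over libraries that share the same 4 conditions, so that any gene raised by all cytokines correlates with them. Among genes with a mean of at least 50, those most like Fgl2 were Hspb1 (0.988), a small heat shock protein gene, Rab29 (0.987), a small GTPase gene, and Serpina3n (0.987). Those most like Tmem88b were Fgl2 (0.985), Hspb1 (0.984) and the metallothionein gene Mt2 (0.984). Epb41l4a was nearest to Armc6 (0.971), Plscr1 (0.967), a phospholipid scramblase gene, and Uchl1 (0.961), a ubiquitin hydrolase gene, with means of 88.0, 77.0 and 68.7 under mOSM, each the highest of the 4 conditions. Stk38l was nearest to Bcam (0.948), a laminin receptor gene, Rab27b (0.923) and Tprkb (0.919). Bcam, like Stk38l, had its highest mean with mLIF (441 ± 9.54), with 358 ± 17.8 with PBS, 436 ± 27.6 with mOSM and 433 ± 23.2 with hlOSM (SD, n = 3). Hspb1 kept a step from mOSM to hlOSM in its means (142 ± 11.4 to 173 ± 21.7) that did not pass the test (limma adjusted p = 0.526).

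The closest relatives of the 4 genes differed from one another. Tmem88, the relative of Tmem88b, had 0 to 3 normalized counts with PBS, 6 to 8 with mLIF, 8 to 21 with mOSM and 8 to 21 with hlOSM. It met the minimum for testing through its mOSM and hlOSM libraries alone, where it is high, so that its levels are given as a description without a test. Stk38, the NDR1 kinase gene, lay between 283 and 320 in every library and its changes of 0.05, -0.01 and -0.01 did not pass (limma adjusted p = 0.659, 0.937 and 0.914). Epb41l4b, with 5 to 21 normalized counts in all libraries, and Epb41l5, with 63 to 97, did not pass with any cytokine. Fgl1 had 0 to 3 normalized counts in all libraries and was not tested.

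The 16 tested genes nearest to the 4 on their chromosomes gave no call for the interaction. mLIF raised 2 of them and lowered 1, mOSM raised 4 and lowered 2, and hlOSM raised 6 and lowered 2. With the replicate block these were 1 and 0, 4 and 1, and 5 and 1. Ccdc146, the gene that surrounds Fgl2 on the other strand, rose from 26.0 ± 4.58 to 41.0 ± 2.65 with mLIF and 52.3 ± 3.06 with mOSM (SD, n = 3). Its log2 changes were 0.65, 1.00 and 1.09 (limma adjusted p = 0.00734, 1.77e-05 and 4.21e-06), in the same order as those of Fgl2. The strand setting of the counting is not given in the sources used here, and reads of the Fgl2 locus cannot be assigned to a strand from the table. Next to Tmem88b, Vwa1, a matrix protein gene, rose with mOSM (1.01) and hlOSM (0.81) and did not pass with mLIF (0.19, limma adjusted p = 0.472). Of the neighbors of Stk38l, Tm7sf3, Med21, Arntl2 and Ppfibp1, none passed with any cytokine. Beside Epb41l4a, Nrep fell with all 3 cytokines, by 0.73, 1.23 and 1.57 on the log2 scale, of which the mLIF call ended with the replicate block (limma adjusted p = 0.0937), and the antisense transcript Epb41l4aos did not pass (-0.03, 0.05 and 0.08).

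**Figure D4:**
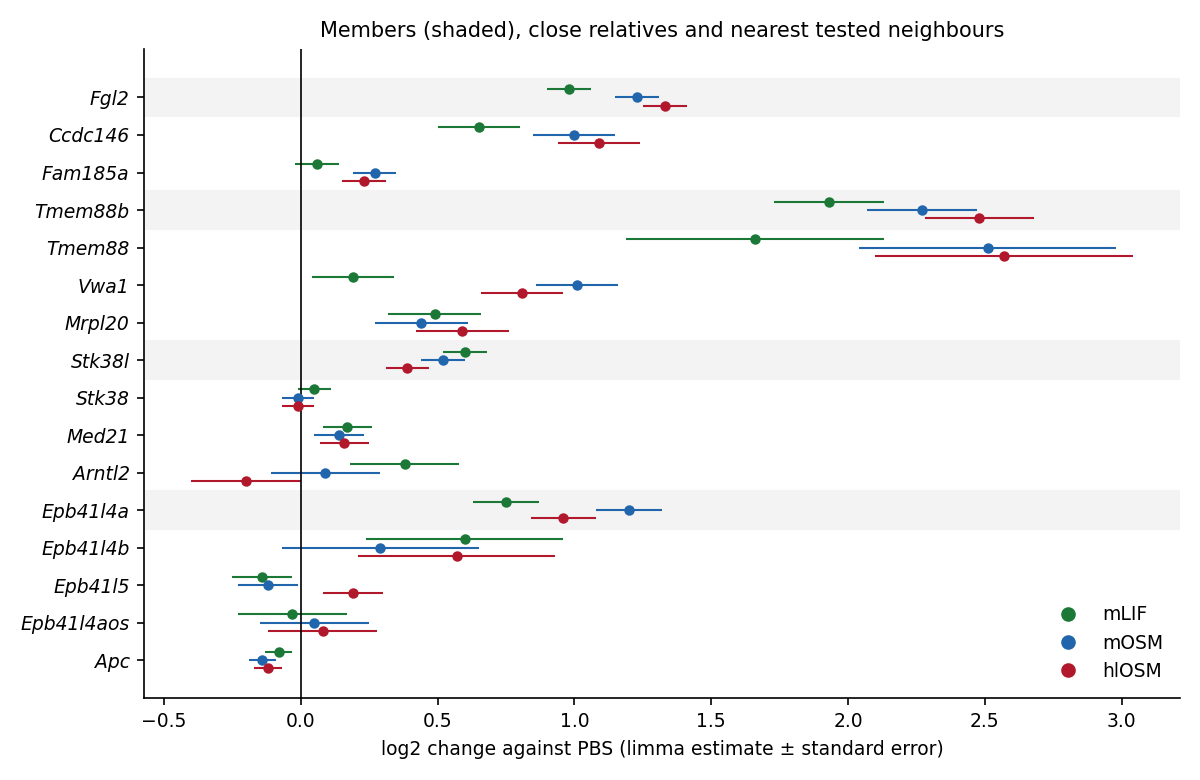
Log2 change against PBS (horizontal axis; points are limma estimates, bars their SE) with mLIF (green), mOSM (blue) and hlOSM (red) for the 4 genes (shaded rows), their tested relatives and nearest tested neighbors. Tmem88, at 1.66, 2.51 and 2.57, and Ccdc146, at 0.65, 1.00 and 1.09, lie to the right of 0 beside Tmem88b and Fgl2, whereas Stk38 and Epb41l5 lie near 0.

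The pathway lists around each gene, which leave out the gene itself, showed no common direction, and their counts with mLIF often moved with 1 library. Of 20 fibrinogen-domain genes, 7 were tested, of which mLIF raised 2 and lowered 1, whereas mOSM and hlOSM each raised 2 and lowered 2. With mLIF 1 was called without PBS replicate 3, mLIF replicate 2 or mLIF replicate 3. The median log2 changes were -0.01, 0.22 and 0.10, beside 0.00, 0.00 and -0.01 over all tested genes. Angptl4, an inhibitor of lipoprotein lipase, rose with mLIF (1.23), mOSM (2.33) and hlOSM (2.43), and Angpt1, a ligand of the endothelial receptor TIE2, fell by 0.67, 1.55 and 1.80 on the log2 scale. The fibrinogen chain genes Fga and Fgg had at most 5 normalized counts in every library. Of 26 coagulation and fibrinolysis genes, 19 were tested, of which mLIF raised 4 and lowered 1, mOSM raised 8 and lowered 3, and hlOSM raised 7 and lowered 4 (medians 0.02, 0.11 and 0.12), and 2 were called with mLIF without PBS replicate 3 or mLIF replicate 3. F5 is counted as raised by mOSM and by hlOSM although it met the minimum for testing only in those libraries, where it is high. Thbd, the thrombin receptor thrombomodulin, rose by 1.46, 3.01 and 3.25, and Pros1, the cofactor protein S, by 0.29, 1.26 and 1.25. F2r, the thrombin receptor PAR1, fell by 1.21 with mOSM and by 1.13 with hlOSM.

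Around Tmem88b, 19 of 25 WNT pathway genes were tested. With mLIF 1 was called, and it was Tmem88 itself, with 3 higher and 7 lower with mOSM and 4 higher and 8 lower with hlOSM (medians -0.01, -0.13 and -0.14). Tmem88 and Notum are counted here although they met the minimum only where they are high, and with the replicate block 0, 6 and 10 genes were called. The mLIF call also ended without PBS replicate 3 or any of the 3 mLIF replicates, and without PBS replicate 1 the mOSM number was 6. Axin2, a negative regulator and target gene of the pathway, was lower with mOSM (-1.37) and hlOSM (-1.34), and its mLIF change of -0.54 did not pass (limma adjusted p = 0.143). Lrp6, a WNT co-receptor, had -0.27 with mOSM and -0.24 with hlOSM, both past the threshold. Around Stk38l, 28 of 30 NDR and Hippo pathway genes were tested, of which 0 passed with mLIF, 4 rose and 7 fell with mOSM and 6 rose and 6 fell with hlOSM (medians 0.03, -0.02 and -0.01). With mLIF 1 was called without PBS replicate 1, PBS replicate 2, mLIF replicate 1 or mOSM replicate 3. The 0 with mLIF is from limma, in which 3383 of all tested genes had an unadjusted p under 0.05. Mob2, whose product binds NDR kinases, was lower with mOSM (-0.31) and hlOSM (-0.37), and so was Ccn2, a YAP target gene (-0.75 and -0.79). Amotl1 (0.49 and 0.55) and the transcription factor gene Tead3 (0.69 and 0.71) were higher with mOSM and hlOSM.

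Around Epb41l4a, 20 of 21 FERM-domain genes of the band 4.1 and ERM families were tested. With mLIF 0 rose and 3 fell, with mOSM 4 rose and 8 fell and with hlOSM 3 rose and 7 fell (medians -0.10, -0.09 and -0.11), and 1 was called with mLIF without PBS replicate 3 or mLIF replicate 1. Epb41l3 was lower with mOSM (-0.67) and hlOSM (-0.95), as was Frmd5 (-1.38 and -1.69), and Ezr, the membrane-cytoskeleton linker ezrin, was higher (0.62 and 0.79). None of these passed with mLIF, in which Ptpn21 (-0.26), Ptpn4 (-0.23) and Frmd6 (-0.23) fell. Of 18 gp130 pathway genes, 17 were tested, with 3 higher with mLIF, 6 higher and 1 lower with mOSM and 7 higher and 2 lower with hlOSM (medians 0.00, 0.03 and 0.05). The receptor gene Osmr rose with mLIF (0.60), mOSM (0.96) and hlOSM (1.07), whereas Lifr did not pass (-0.08, 0.02 and -0.01) and Il6st rose with mOSM (0.19) and hlOSM (0.18) and not past the threshold with mLIF (0.04). In none of the 6 lists but the last, where it was Socs3, did a gene pass for the interaction.

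The labelled cell type was checked with markers. Over 10 cardiomyocyte markers, among them Ttn, Myh6 and Tnnt2, the summed normalized counts were 53495 to 55816 with PBS, 46687 to 48974 with mLIF, 38338 to 43082 with mOSM and 39154 to 41869 with hlOSM, and 7, 8 and 8 markers fell. Most of each sum was Ttn alone, with means of 32924, 28727, 22907 and 23564 in the same order of conditions. With mLIF the number of markers called was 5 with the replicate block, 0 without mLIF replicate 3, 1 without PBS replicate 3, 3 without mLIF replicate 2 and 4 without PBS replicate 1. The 10 endothelial markers summed to 1183 to 1246 with PBS and, overlapping with it, 1188 to 1255 with mLIF, where Pecam1 fell (-0.28, limma adjusted p = 0.00916), a call that ended without mLIF replicate 3. They summed to 1491 to 1673 with mOSM and 1483 to 1596 with hlOSM, where 7 rose in each. The 10 fibroblast markers summed to 2330 to 2555, 2136 to 2283, 2470 to 2907 and 2323 to 2555 in the same order of conditions, with 0, 2 and 3 higher and 1, 4 and 7 lower, and the 1 with mLIF, Col1a2, ended with the replicate block (limma adjusted p = 0.0755) and without PBS replicate 3, hlOSM replicate 2 or any mLIF replicate. The 8 mural cell markers summed to 1048 to 1296 with PBS and to 968 to 1023, 729 to 782 and 662 to 693 with the cytokines, with 0, 6 and 7 lower. Of 10 leukocyte markers 6 were tested, Cd14 had at most 5 normalized counts in every library, and sums were 313 to 340, 292 to 332, 357 to 398 and 333 to 402, with 1 higher in each comparison and 0, 1 and 1 lower. The 1 higher with mLIF was Cd68 (0.61, limma adjusted p = 0.0192), a call that ended without PBS replicate 3, mLIF replicate 1 or mLIF replicate 3. The fall of Itgam with mOSM (-1.13) ended with the replicate block (limma adjusted p = 0.0622), and with hlOSM 1 marker was called without PBS replicate 2 or 3 or hlOSM replicate 2 or 3. Fgl2 is known from immune cells and endothelium as well. The part of these markers in the results of the 4 genes was not tested for any cytokine.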

How the data were processed

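RNA of cardiomyocytes was sequenced in 12 libraries, 3 for each of 4 conditions, grouped and numbered by their GEO titles. According to the methods, the authors trimmed reads, aligned them to mm10 and counted reads in exons. The submitters' processing notes name STAR 2.7.7a and featureCounts 1.6.5. The deposited values are scores: counts that the authors normalized between libraries, by a method not given in the sources used here, and rounded to whole numbers. The methods give an average number of reads per library, but not the reads behind each library, so that counting errors could not be given and no count model was used.

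Two-sided tests were made in R 4.3.3 with limma 3.58.1, using moderated variances that follow the mean level, on log2(value + 1), with all libraries in a single fit, condition as the only term and 13184 genes whose value reached 10 in 3 or more libraries. A gene was called at a Benjamini-Hochberg adjusted p under 0.05 over all of them. The scripts were tested on simulated data. The 4 genes and the gene and marker lists were chosen with earlier results of these data known, and for the 4 genes only mOSM against mLIF was tested. Other named genes are close relatives, the 2 nearest tested genes on either side, the 3 most correlated genes with a mean of at least 50, the 5 most negative interactions and the neighbors in that order, and from each list up to 4 genes with the smallest adjusted p per comparison, besides Osmr, Lifr, Il6st and Socs3. Alternatives were pseudocounts of 0.1 and 5, no filter, a filter at 50, trimmed-mean (of M-values) and quantile scaling, a robust fit, a replicate block, only the libraries compared, adding changes in value, and each library left out. Exon lengths come from the GENCODE annotation and promoters from RefSeq. Tables and figures were made in Python 3.11.15.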

Additional observations from a re-analysis of the deposited data

Results flagged for a closer look

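For Socs3, the feedback inhibitor of gp130 signaling, the step that goes with LIFR binding differed between ligands that do and do not bind OSMR. Its normalized count was 192 ± 21.4 with PBS, 386 ± 34.2 with mLIF, 816 ± 56.3 with mOSM and 865 ± 52.9 with hlOSM (SD, n = 3). The step from PBS to mLIF was 1.00 on the log2 scale (SE 0.08) and the step from mOSM to hlOSM was 0.09 (SE 0.08). The difference between these steps was -0.92 (SE 0.11, limma adjusted p = 2.40e-04), close in size to that of Fgl2 (-0.88). The mOSM change of Socs3 (2.09) was larger than its mLIF change by 1.08, whereas that gap was 0.25 for Fgl2. Socs3 was among the 620 genes raised by both, which all had a negative interaction estimate and share the PBS libraries. hlOSM reached 70.2% of the log2 sum of Socs3, beside 65.6% in the median such gene. Whether LIFR binding alone accounts for the step from mOSM to hlOSM, which differ in the AB loop, was not tested.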

How the results depend on the processing

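The reads behind each library are not given, the smallest values, such as 8 for Tmem88b with PBS, are the least certain, and 3 libraries a group limit every comparison. Deviations of same-numbered libraries from their condition means correlated negatively (18 pairs, -0.406 to -0.151; different numbers, 36 pairs, 0.00438 to 0.328), which values without a difference between numbers produce by themselves (SD 0.0019 for replicate 3 minus replicate 1), so that this check cannot tell whether the numbers pair the libraries. With the replicate block the genes called with mLIF went from 1307 to 784, those raised by mLIF and by mOSM from 620 to 404, negative interactions from 20 to 13 and positive ones from 2 to 1, and the Epb41l4a difference of mOSM from mLIF had a limma adjusted p of 0.0539. Negative interactions numbered 10 with no filter, 13 with trimmed-mean scaling, 12 with quantile scaling and 10 with a robust fit, and positive ones 1 with no filter and 1 with trimmed-mean scaling. Leaving out 1 library gave 502 to 1625 genes with mLIF, 3198 to 4306 with mOSM (4120 in all libraries), 4032 to 5281 with hlOSM (5002), 1091 to 1722 for mOSM against mLIF (1557), 257 to 715 raised by both, 5 to 136 negative and 0 to 18 positive interactions. Negative interactions numbered 81 without PBS replicate 1, 136 without hlOSM replicate 3, 7, 6 and 5 without hlOSM replicate 1, hlOSM replicate 2 and mLIF replicate 3, and 12 without mLIF replicate 1 or mOSM replicate 2. Genes with mLIF numbered 626 without PBS replicate 3, and 830, 856 and 502 without mLIF replicates 1, 2 and 3. With changes in normalized value added in place of log2 changes, the log2 ratio of hlOSM to the sum was -0.40 for Fgl2, -0.41 for Tmem88b, -0.56 for Stk38l and -0.61 for Epb41l4a. Leave-one-out interactions ran from -0.95 to -0.80 for Fgl2, -1.96 to -1.51 for Tmem88b, -0.81 to -0.65 for Stk38l and -1.10 to -0.89 for Epb41l4a. No value of the 4 genes changed sign under these alternatives, and the causes of the moves were not tested.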

Other observations

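The mirror group, 493 genes lower with mLIF and with mOSM, had a positive interaction estimate in 479, with a median of 0.23, and it shares the PBS libraries in the same way. The 2 genes with a positive interaction past the threshold belonged to it and were named after their values were seen. Sema3c, a secreted semaphorin, had 592 ± 56.8 normalized counts with PBS, 378 ± 23.7 with mLIF, 369 ± 34.1 with mOSM and 353 ± 9.45 with hlOSM (SD, n = 3). Its log2 changes were -0.64, -0.68 and -0.74 and its interaction was 0.58 (SE 0.11, limma adjusted p = 0.0211), so that the level with any 1 of the ligands was close to that with the others. Gm44829 had 113 ± 7.37, 61.3 ± 4.73, 68.0 ± 10.6 and 69.7 ± 10.4 in the same order, with an interaction of 0.91 (SE 0.18, limma adjusted p = 0.0366), a call that ended with the replicate block (0.0871).

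Among the negative interactions, also named after their values were seen, Selp, the adhesion molecule P-selectin, went from 35.3 ± 1.53 with PBS to 86.7 ± 8.50 with mLIF, 210.0 ± 37.0 with mOSM and 197 ± 6.03 with hlOSM (SD, n = 3), with an interaction of -1.35 (SE 0.15, limma adjusted p = 1.87e-04). Mylk2, the skeletal muscle myosin light chain kinase, was 278 ± 51.4, 354 ± 36.7, 440.0 ± 60.6 and 337 ± 11.2 in the same order, so that its hlOSM mean lay below both single-ligand means, as that of Stk38l did. Its interaction of -0.73 had a limma adjusted p of 0.0491, and of 0.0553 with the replicate block. Its difference of hlOSM from mOSM did not pass the test (-0.37, limma adjusted p = 0.313).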
